A study of Mus musculus with 15 samples.

Results

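The genes described here encode 10 interleukin receptor chains carried by CD8 T cells, namely Il2ra, Il2rb, Il2rg, Il7r, Il21r, Il10ra, Il18r1, Il18rap, Il12rb1 and Il12rb2. They were chosen by name, as 10 of the 21788 gene symbols listed in at least 1 of the 15 libraries, and all 10 were listed in every library. The cells came from E.G7 tumours, an ovalbumin-producing T cell lymphoma line grown under the skin of female C57BL/6 mice aged 6 to 8 weeks. Cells were sorted from the tumours on day 21, at 9 to 11 weeks of age. All groups therefore share the tumour, the sex and the day. OVA-specific CD8 T cells sorted without further division gave 1 library labelled KO for B7S1, a ligand that restrains T cells, and 1 wild-type library (the bulk pair, with 6 mice behind each). A second sort split PD-1+ CD8 T cells into B7S1R_SP (B7S1R positive, Tim-3 negative), TIM-3_SP (Tim-3 positive, B7S1R negative) and DN (negative for both). Each of these 3 populations has 1 library labelled KO and 2 wild-type libraries, numbered 1 and 2. The last 4 libraries carry the titles combo, anti_PD1, anti_B7S1 and Control, are labelled wild type, and have 1 library each with no dose or schedule in the labels.

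Cytokine receptors of the common gamma chain family share the subunit encoded by Il2rg. Il2rb joins it to bind IL-2 and IL-15, Il2ra adds high affinity for IL-2, Il7r binds IL-7 and Il21r binds IL-21, and the signal passes through the kinases JAK1 and JAK3 to STAT factors. In CD8 T cells, Il7r is known as a marker of resting and memory cells, while Il2ra and Il2rb are known for activated cells. Il10ra encodes the ligand-binding chain for IL-10, an inhibitory cytokine that works through STAT3. Il18r1 binds IL-18 and Il18rap is its accessory chain, signalling through MYD88. Il12rb1 and Il12rb2 together bind IL-12, which drives interferon gamma through STAT4, and Il12rb1 also serves the IL-23 receptor.

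Il18r1 and Il18rap are neighbours on chromosome 1 of GRCm38.p6, the assembly that mm10 names, both on the plus strand. Il18r1 spans 40465552 to 40500854 and Il18rap spans 40515362 to 40551707, with 14507 bases between them. Their levels moved together among the sorted libraries, and Il12rb2 read 39.2 and 61.4 FPKM in 2 of the antibody libraries and was listed at 0 in the others, so the stretches before the annotated starts of these 3 genes are shown. The sequences are from RefSeq (GRCm38.p6) and run 5′ to 3′ on the strand of the gene. Those of Il18r1 (chr1:40465302-40465551, plus strand) and Il18rap (chr1:40515112-40515361, plus strand) hold 250 bases each. That of Il12rb2 (chr6:67376294-67376438, minus strand) holds the 145 bases that lie outside any annotated transcript of the gene. Capitals mark matches to the motifs searched.
Il18r1: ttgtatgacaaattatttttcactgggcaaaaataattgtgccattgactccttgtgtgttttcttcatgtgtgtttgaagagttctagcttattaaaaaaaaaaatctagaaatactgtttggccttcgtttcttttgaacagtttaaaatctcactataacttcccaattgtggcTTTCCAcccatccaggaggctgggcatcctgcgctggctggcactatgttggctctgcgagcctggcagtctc
Il18rap: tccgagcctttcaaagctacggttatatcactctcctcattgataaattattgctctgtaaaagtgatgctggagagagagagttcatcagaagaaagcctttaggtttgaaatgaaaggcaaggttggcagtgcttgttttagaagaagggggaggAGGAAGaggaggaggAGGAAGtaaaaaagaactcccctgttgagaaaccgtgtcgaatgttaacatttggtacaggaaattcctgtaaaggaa
Il12rb2: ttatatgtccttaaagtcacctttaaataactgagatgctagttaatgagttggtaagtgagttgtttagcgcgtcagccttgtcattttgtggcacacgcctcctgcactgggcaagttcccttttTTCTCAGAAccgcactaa

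The motifs were searched on both strands, and matches in these 3 windows do not overlap. GAS, the site of STAT factors, was searched as TTCNNNGAA, and 7.18% of the 250-base windows of 27025 RefSeq genes held it. The NFAT core was searched as TTTCCA and was held by 18.69%. The ETS core was searched as AGGAAG and was held by 29.15%. T-box sites were searched as AGGTGTGA and were held by 1.14%. Runx sites were searched as TGTGGTT and were held by 4.46%. Forkhead sites, which FOXO1 binds, were searched as GTAAACA and were held by 3.09%. The AP-1 site was searched as TGANTCA and was held by 6.87%. The E-box was searched as CACGTG and was held by 6.05%. The TATA motif was searched as TATAAA and was held by 12.97%. The Il18r1 stretch held 1 NFAT match, which begins 73 bases before its 3′ end. The Il18rap stretch held 2 ETS core matches, which begin 93 and 78 bases before its 3′ end. The Il12rb2 stretch held 1 GAS match, which begins 18 bases before its 3′ end. At 145 bases, this stretch is shorter than the 250-base windows behind the shares. The neighbouring IL-18 receptor genes therefore shared no motif of this panel in these windows. A match of letters is a description and was not tied to binding in these data.

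All values are transcript levels scaled for transcript length and sequencing depth, as RPKM in the bulk pair and FPKM elsewhere. The 4 groups of files list different genes, so levels are compared only within a set: the bulk pair, the 3 wild-type sorted libraries numbered 1, the 3 numbered 2, the 3 labelled KO (whose files list the same genes as those numbered 2) and the 4 antibody libraries. Estimated depth was 12100000 reads in the bulk library labelled KO and 11100000 in the wild-type one, and the depth behind the FPKM values is unknown. All 13 T cell identity genes examined stood at 1 or more in every library, which does not separate CD8 T cells from the tumour line, itself of T cell origin. Cd8a ranged from 48.6 to 512 in all 15 libraries. Havcr2, which encodes Tim-3 and was used in the sort, read 0 to 9.34 FPKM in B7S1R_SP and 27.4 to 157 FPKM in TIM-3_SP, against 0.16 to 4.09 FPKM in DN. Pdcd1 encodes PD-1, the gate that all sorted libraries share. It read 3.17, 17.7 and 12.1 FPKM in B7S1R_SP, TIM-3_SP and DN labelled KO. In wild type 2 it read 28.5, 83.8 and 137 FPKM, and in wild type 1 353, 489 and 142 FPKM. The part of Pdcd1 level in the genotype differences below was not tested. Vtcn1 encodes B7S1, and no library labelled KO held less of it than its wild-type counterpart. It read 9.46 RPKM in the bulk library labelled KO and 0.0687 RPKM in the wild-type one. In the sorted libraries it read 0.16, 2.5 and 1.02 FPKM in B7S1R_SP, TIM-3_SP and DN labelled KO, and was listed at 0 in the 3 wild-type libraries numbered 2. Every genotype direction below rests on the labels.

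B7S1R_SP labelled KO and B7S1R_SP wild type 2 stood apart by their low levels of T cell genes. Their summed levels of the 13 T cell identity genes were 2477 and 2900 FPKM, against 5422 FPKM in B7S1R_SP wild type 1, 7052 to 9389 FPKM in the TIM-3_SP libraries and 3834 to 8570 FPKM in DN. Myeloid markers summed to 9523, 3909 and 1265 FPKM in B7S1R_SP labelled KO, wild type 1 and wild type 2. The sum covers 20 markers, of which the wild-type files numbered 1 list 17, without C1qa, C1qb and C1qc. The same sum was 516 to 968 FPKM in TIM-3_SP cells and 885 to 2309 FPKM in DN. Lyz2, a lysozyme gene of macrophages, reached 2439.6 FPKM in B7S1R_SP labelled KO. Csf1r, a receptor that defines macrophages, read 4.27, 22.3 and 1.82 FPKM in those libraries, against 0 to 0.76 FPKM across TIM-3_SP and DN. Tests of the chains in B7S1R_SP are given with and without the 2 libraries that stood apart, a choice made after seeing the data. Without them B7S1R_SP is wild type 1 alone, and limma then assumes that this library varies like the other populations. The myeloid sum of wild type 1 also lay above every TIM-3_SP and DN library, while that of wild type 2 lay within the DN range. The DN sums were largely Cst3, at 1929 of 2249 FPKM in DN wild type 2, against 418 FPKM of Cst3 in B7S1R_SP wild type 2. Of the 20 markers, 18 stood at 1 FPKM or more in B7S1R_SP wild type 2 and 8 in DN wild type 2. The part of other cells in any B7S1R_SP library was not tested.

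**Figure D1:**
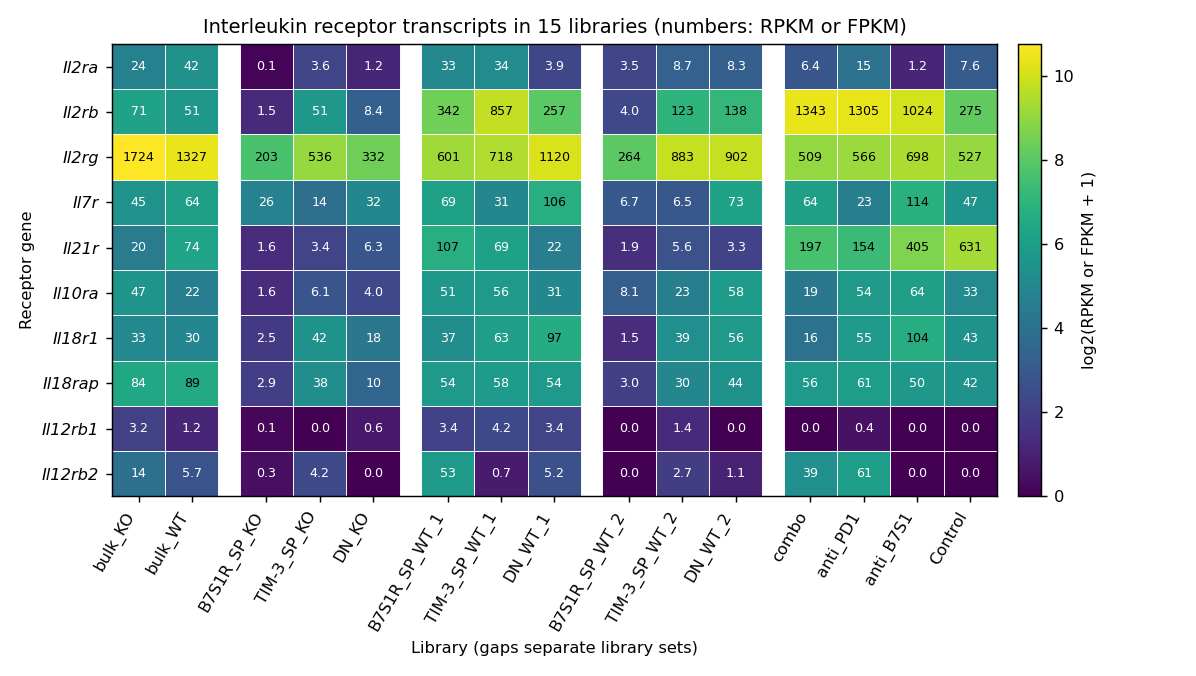
Levels of the 10 receptor genes (rows) in each of the 15 libraries (columns), written as RPKM in the bulk pair and FPKM elsewhere and coloured by log2(value + 1). Il2rg is high throughout, between 203 and 1724, Il12rb1 never passes 4.18, and the B7S1R_SP libraries labelled KO and wild type 2 are low for most chains.

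Il2rg was the most abundant chain in 10 of the 11 bulk and sorted libraries. Only in TIM-3_SP wild type 1 did Il2rb, at 857 FPKM, exceed Il2rg, at 718 FPKM. Il2rg made up 22.6% to 32.9% of the summed levels of the 10 chains in the antibody libraries, where Il2rb or Il21r led. In the bulk and sorted libraries its share was 38.0% to 90.2%. Il12rb1 was the lowest chain in most libraries and ranged from being listed at 0 to 4.18 FPKM. The remaining chains changed places from library to library. Il2ra held rank 6 to 10 in the bulk and sorted libraries apart from B7S1R_SP wild type 2, where it held rank 5.

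Between TIM-3_SP and DN the question is what accompanies Tim-3 on PD-1+ cells. Il7r, the IL-7 receptor, was lower in TIM-3_SP in every set. Il7r read 13.9, 30.5 and 6.46 FPKM in TIM-3_SP labelled KO, wild type 1 and wild type 2, against 31.6, 106 and 72.9 FPKM in DN. Across sets, the highest TIM-3_SP value (30.5 FPKM, wild type 1) lay just under the lowest DN value (31.6 FPKM, labelled KO). These 2 values come from different sets, and the share of all genes without overlap was not counted. On the log2(FPKM + 1) scale the difference was -1.13, -1.76 and -3.31 in those sets. In limma over the 9 sorted libraries, with the set as a term, the log2 fold change was -2.06 ± 0.54 (SE), with an unadjusted p of 0.00275 and a Benjamini-Hochberg adjusted p of 0.278. It thus missed the threshold of 0.05 over 10178 genes.

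Of the 10 chains 0 passed that threshold between TIM-3_SP and DN, where 0.236% of all genes tested (24 genes) passed. At an unadjusted p under 0.05 in limma, 1 of 10 chains was lower and 0 higher, against 6.57% of all genes lower and 2.27% higher. Il7r was also the 1 chain lower by 1 or more on the log2 scale in each of the 3 sets, as were 1.87% of all genes. The chains' median fitted difference was 0.36, beside -0.14 over all genes, but it was -0.20 without TIM-3_SP labelled KO and -0.22 in wild type alone. The number of chains with a fitted difference above 0 was 9 of 10, and it was 4 of 10 in each of those settings and 5 of 10 without TIM-3_SP wild type 2. In bulk RNA of a sorted population, fewer cells carrying a transcript and less transcript per cell cannot be told apart. Leaving out DN wild type 2 moved the Il7r value to -1.28.

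The IL-2 receptor chains Il2rb and Il2ra were higher in TIM-3_SP than in DN in the libraries labelled KO and wild type 1, and differed little in wild type 2. Il2rg had log2 differences of 0.69, -0.64 and -0.03 in the sets labelled KO, wild type 1 and wild type 2. Il2rb, the signalling chain for IL-2 and IL-15, read 50.8 and 857 FPKM in TIM-3_SP labelled KO and wild type 1, against 8.41 and 257 FPKM in DN. In wild type 2 it read 123 FPKM in TIM-3_SP, against 138 FPKM in DN. Il2ra, the high-affinity chain, followed the same sets, with 3.58, 34.2 and 8.72 FPKM in TIM-3_SP labelled KO, wild type 1 and wild type 2. In DN it read 1.2, 3.93 and 8.32 FPKM in the same sets. The groups overlapped for both genes, and neither passed the threshold.

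The ratio of Il7r to Il2rb was 18.096, 0.201 and 1.691 in B7S1R_SP labelled KO, wild type 1 and wild type 2. It was 0.274, 0.036 and 0.052 in TIM-3_SP, against 3.759, 0.412 and 0.53 in DN. TIM-3_SP was the lowest population in each set. The order of B7S1R_SP and DN differed between sets, with B7S1R_SP below DN in wild type 1 and above it in the other sets. The ratio is a description of 1 library per population and set, chosen after its values were seen, and it does not depend on how a library was scaled.

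**Figure D2:**
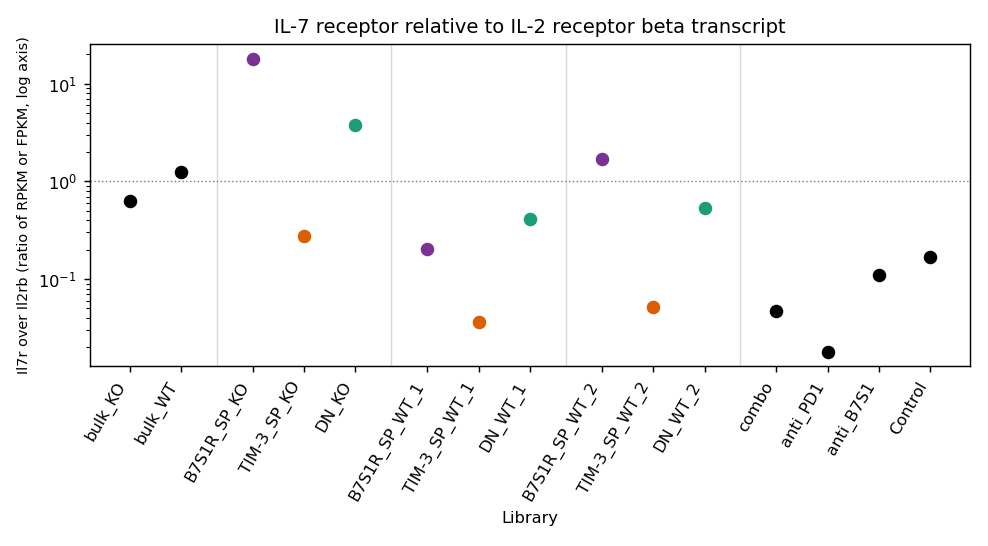
Ratio of Il7r to Il2rb level in each library on a log axis (TIM-3_SP orange, B7S1R_SP purple, DN green, other libraries black; the dotted line marks equal levels). TIM-3_SP is lowest in each of the 3 sorted sets, at 0.036 to 0.274, and anti_PD1 is lowest of the antibody libraries, at 0.018.

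More genes passed between B7S1R_SP and TIM-3_SP than between either and DN, with 1.62% of all genes (165 genes) past the threshold, 80 higher and 85 lower in B7S1R_SP. Among the chains 1 of 10 passed, Il2rb, which was lower in B7S1R_SP. Il2rb read 1.46, 342 and 3.98 FPKM in B7S1R_SP labelled KO, wild type 1 and wild type 2, against 50.8, 857 and 123 FPKM in TIM-3_SP. The groups overlapped across sets, because B7S1R_SP wild type 1 lay above 2 TIM-3_SP libraries, but within each set B7S1R_SP was the lower. The log2 fold change was -3.45 ± 0.75 (SE, limma adjusted p = 0.0461), with differences of -4.40, -1.32 and -4.64 in the 3 sets. Without B7S1R_SP labelled KO and wild type 2 the value was -1.13 and the limma adjusted p 0.59, with 1 B7S1R_SP library left. Leaving out 1 library at a time moved it between -4.62 and -2.48, with adjusted p-values of 0.00413 to 0.168.

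Both IL-18 receptor chains were lower in B7S1R_SP than in TIM-3_SP in every set, with the smallest gaps in wild type 1. Il18r1, the IL-18 binding chain, read 2.45, 36.9 and 1.54 FPKM in B7S1R_SP labelled KO, wild type 1 and wild type 2. In TIM-3_SP it read 41.8, 62.8 and 39.1 FPKM in the same sets. Its log2 fold change was -2.79 ± 0.63 (limma adjusted p = 0.0526), which just missed the threshold. Il18rap, the accessory chain, read 2.87, 54.4 and 3.0 FPKM in B7S1R_SP labelled KO, wild type 1 and wild type 2, against 37.7, 57.6 and 30.2 FPKM in TIM-3_SP. It had a log2 fold change of -2.12 ± 0.66 (limma adjusted p = 0.147). Without the 2 libraries that stood apart these values were -1.07 (limma adjusted p = 0.61) and -0.26 (limma adjusted p = 0.946).

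Il2rg, the shared gamma chain, read 203, 601 and 264 FPKM in B7S1R_SP labelled KO, wild type 1 and wild type 2, against 536, 718 and 883 FPKM in TIM-3_SP. It was lower in B7S1R_SP in each set, with a log2 fold change of -1.13 ± 0.34 (limma adjusted p = 0.139), but B7S1R_SP wild type 1 lay above TIM-3_SP labelled KO. Without the 2 libraries that stood apart it was -0.58 (limma adjusted p = 0.731). At an unadjusted p under 0.05 in limma, 4 of 10 chains were lower in B7S1R_SP and 0 higher, against 5.77% and 9.89% of all genes. Without the 2 libraries that stood apart, 0 chains were lower at that level and 1 (Il12rb2) was higher. Of the chains 7 of 10 kept 1 direction in all 3 sets, as did 38.6% of all genes, and 1 (Il2rb) fell by 1 or more in each set, as did 1.86% of all genes. The chains' median fitted difference was -1.04, beside 0.18 over all genes, and it was -0.0018 without the 2 libraries that stood apart. When each library was shifted to a common mean over the 13 T cell genes, a scaling chosen after seeing the data, the chains' median was -0.05. On that scaling 3 of 10 chains passed, beside 2035 of 10178 genes, of which 1974 were higher in B7S1R_SP. Il2rb (-2.46, limma adjusted p = 0.0239) and Il18r1 (-1.80, limma adjusted p = 0.0363) passed as lower, and 1 chain passed as higher. Il2rg was at -0.14.

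**Figure D3:**
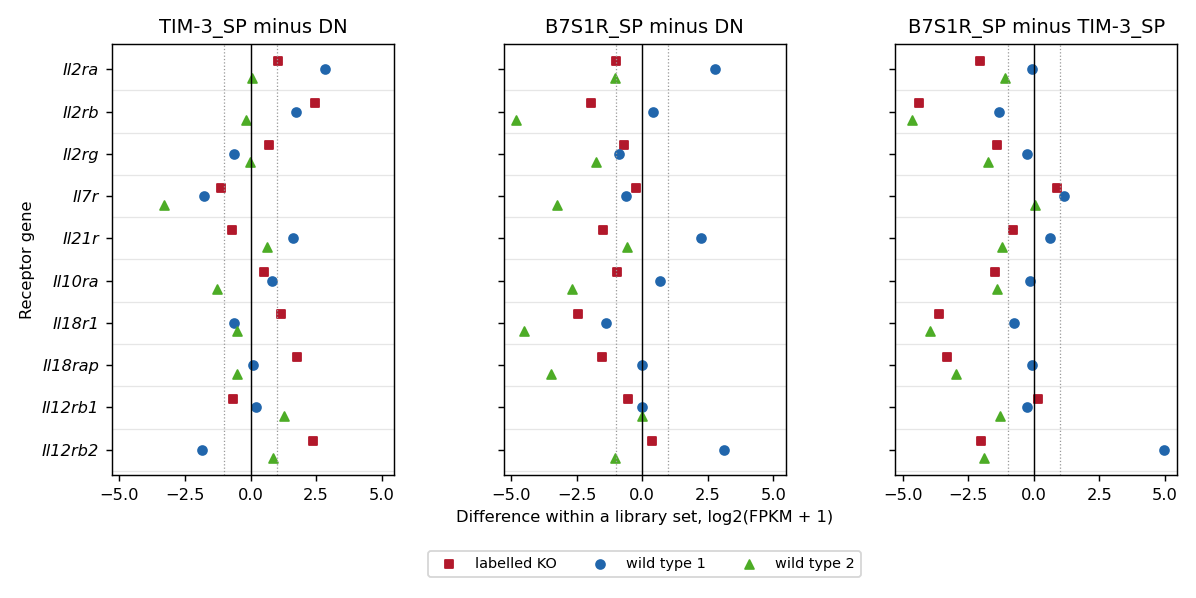
Differences in log2(FPKM + 1) between sorted populations within each library set for the 10 receptor genes. Squares are the libraries labelled KO, circles wild type 1 and triangles wild type 2, and dotted lines mark a difference of 1 in either direction. Il7r lies left of -1 in all 3 sets between TIM-3_SP and DN, and Il2rb and Il18r1 lie furthest left between B7S1R_SP and TIM-3_SP in the sets labelled KO and wild type 2.

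Against DN, 0 of 10 chains passed in B7S1R_SP, where 0.00983% of all genes (1 gene) did, with 742 genes at an unadjusted p under 0.05. Il18r1 came closest. It read 2.45, 36.9 and 1.54 FPKM in B7S1R_SP labelled KO, wild type 1 and wild type 2, against 18.0, 97.0 and 56.1 FPKM in DN. The groups overlapped, since B7S1R_SP wild type 1 lay above DN labelled KO, but the difference was -2.46, -1.37 and -4.49 within the sets. Its log2 fold change was -2.77 ± 0.63 (limma adjusted p = 0.348), and it was the 1 chain lower by 1 or more in each set, as were 0.707% of all genes. Without the 2 libraries that stood apart it was -1.05, with an adjusted p of 0.799.

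A further 4 chains had an unadjusted limma p under 0.05 between B7S1R_SP and DN, all lower in B7S1R_SP. They were Il2rb (-2.11 ± 0.75), Il2rg (-1.12 ± 0.34), Il7r (-1.37 ± 0.54) and Il18rap (-1.68 ± 0.66), with adjusted p-values of 0.606, 0.53, 0.634 and 0.634. In all, 5 of 10 chains were lower at that level, against 4.15% of all genes. Without the 2 libraries that stood apart, 0 chains were lower at that level and 1 (Il12rb2) was higher, and the chains' median was 0.20 in place of -1.06. Il2rb and Il18rap then turned to 0.22 and 0.18, while Il2rg was at -0.57 and Il7r at -0.76. With a common T cell gene mean 1 of 10 chains was lower at that level, and the median was -0.18. Il7r differed least in the set labelled KO, with 26.4 FPKM in B7S1R_SP and 31.6 FPKM in DN. In wild type 2 it read 6.73 FPKM in B7S1R_SP and 72.9 FPKM in DN.

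The wild-type libraries numbered 1 went their own way for Il2ra, Il21r and Il12rb2. Il21r, the IL-21 receptor, read 107 FPKM in B7S1R_SP and 69.0 FPKM in TIM-3_SP, against 21.7 FPKM in DN. In wild type 2 it read 1.85 and 5.60 FPKM in B7S1R_SP and TIM-3_SP, against 3.29 FPKM in DN. Il12rb2, the IL-12 signalling chain, read 53.4 FPKM in B7S1R_SP wild type 1, against 0.73 FPKM in TIM-3_SP wild type 1 and 5.23 FPKM in DN wild type 1. In the other 6 sorted libraries Il12rb2 stayed at 4.24 FPKM or below. The high Il12rb2 value thus comes from 1 library and has no second library of its population near it.

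Il10ra, which binds IL-10, was lower in B7S1R_SP than in TIM-3_SP in each set, with log2 differences of -1.48, -0.14 and -1.41 in the sets labelled KO, wild type 1 and wild type 2, and had no shared direction against DN. It read 1.56, 50.8 and 8.12 FPKM in B7S1R_SP labelled KO, wild type 1 and wild type 2. In TIM-3_SP it read 6.12, 56.2 and 23.3 FPKM, and in DN 4.02, 31.3 and 57.5 FPKM. Il12rb1 was near the floor everywhere, between 0 and 4.18 FPKM in the sorted libraries. No difference was read at such levels, because the depth is unknown.

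The libraries labelled KO were compared with the wild-type libraries numbered 2, whose files list the same genes, to ask how the receptors read in mice labelled as lacking B7S1. Il2ra, Il2rb and Il10ra were lower in the library labelled KO in all 3 populations. For Il10ra the values labelled KO were 1.56, 6.12 and 4.02 FPKM in B7S1R_SP, TIM-3_SP and DN, against 8.12, 23.3 and 57.5 FPKM in wild type 2. Every library labelled KO lay below every wild-type one for this gene, but the share of all genes that separate in this way was not counted. The log2 fold change of Il10ra was -2.38 ± 0.48 (limma with the population as a term, adjusted p = 0.134).

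Il2rb read 1.46, 50.8 and 8.41 FPKM in B7S1R_SP, TIM-3_SP and DN labelled KO, against 3.98, 123 and 138 FPKM in wild type 2. The genotypes overlapped across populations, and the gap was widest in DN, at -3.88 on the log2 scale, beside -1.02 in B7S1R_SP and -1.26 in TIM-3_SP. Il2ra read 0.09, 3.58 and 1.2 FPKM in B7S1R_SP, TIM-3_SP and DN labelled KO, against 3.55, 8.72 and 8.32 FPKM in wild type 2. Their log2 fold changes were -2.05 ± 0.55 for Il2rb (limma adjusted p = 0.184) and -1.74 ± 0.50 for Il2ra (limma adjusted p = 0.198). Il2rg was lower too, with 203, 536 and 332 FPKM labelled KO against 264, 883 and 902 FPKM in wild type 2. Its log2 fold change was -0.85 ± 0.29 (limma adjusted p = 0.249).

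Of the 9 chains whose mean reached 1 FPKM (that of Il12rb1 did not), 0 passed the threshold, where 0.0990% of all genes (10 genes, all lower) did. At an unadjusted p under 0.05, 4 of 9 were lower and 0 higher, against 9.76% and 5.46% of all genes. The 3 chains Il2ra, Il2rb and Il10ra, of 9, were lower by 1 or more on the log2 scale in all 3 populations, as were 1.49% of all genes. The chains' median was -0.57, beside -0.16 over all genes, and it was 0.09, beside 0.51, with a common T cell gene mean. Without the B7S1R_SP libraries Il2rb (-2.57) and Il10ra (-2.66) passed, with limma adjusted p-values of 0.011 and 0.0173, beside 163 of 9792 genes. That fit has 4 libraries, 1 per population and genotype, so its spread rests largely on what limma pools over genes. All 13 T cell identity genes also had a fitted value below 0 in this comparison, with a median of -0.73, and their part in these differences was not tested. With each library shifted to a common T cell gene mean the values were -1.72 for Il10ra, -1.39 for Il2rb, -1.08 for Il2ra and -0.18 for Il2rg. There is 1 library labelled KO per population, and nothing says the libraries came from separate mice, so p measures spread between libraries and populations.

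Il7r did not follow these chains. It was higher in the library labelled KO in B7S1R_SP, at 26.4 FPKM against 6.73 FPKM in wild type 2, and in TIM-3_SP, at 13.9 FPKM against 6.46 FPKM. In DN it was lower in the library labelled KO, at 31.6 FPKM against 72.9 FPKM in wild type 2. The IL-18 receptor chains differed by over 1 on the log2 scale in DN but by less in the other populations. In DN, Il18r1 read 18.0 FPKM labelled KO and 56.1 FPKM in wild type 2, and Il18rap read 10.3 FPKM labelled KO and 43.9 FPKM in wild type 2. In limma, with the 3 contrasts of genotype effect between populations, 0 of the 10 chains passed and 0.00% of all genes (0 genes) passed, with 33 to 60 genes at an unadjusted p under 0.05. The smallest unadjusted p among the chains was 0.251. These differences between populations are therefore not shown to exceed the spread.

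The bulk pair gave other directions. Il10ra read 47.4 RPKM labelled KO and 22.3 RPKM in wild type, and Il12rb2 14.0 RPKM labelled KO and 5.72 RPKM in wild type. Il21r went the other way, with 20.3 RPKM labelled KO and 74.1 RPKM in wild type. These 3 of 9 chains at 5 RPKM or more passed a 2-fold ratio on the log2(RPKM + 1) scale, with values of 1.06, 1.16 and -1.82, against 22.9% of all 6075 genes tested. Il21r kept its 2-fold ratio in every setting tried, while Il10ra (0.94) and Il12rb2 (0.83) lost theirs with a pseudocount of 5, as they did with a common T cell gene mean (0.82 and 0.92). There is no replicate behind either value, so no test applies. Il2rb read 71.3 RPKM labelled KO and 50.9 RPKM in wild type, and Il2rg 1724 RPKM labelled KO and 1327 RPKM in wild type. Both were thus higher in bulk KO while lower in the 3 sorted populations labelled KO, and the same holds for Il10ra. Il2ra was lower in all 4 comparisons, with 24.4 RPKM in the bulk library labelled KO and 41.5 RPKM in wild type. Il18r1 and Il18rap differed little in bulk, with 32.6 and 83.9 RPKM labelled KO against 29.98 and 89.1 RPKM in wild type.

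**Figure D4:**
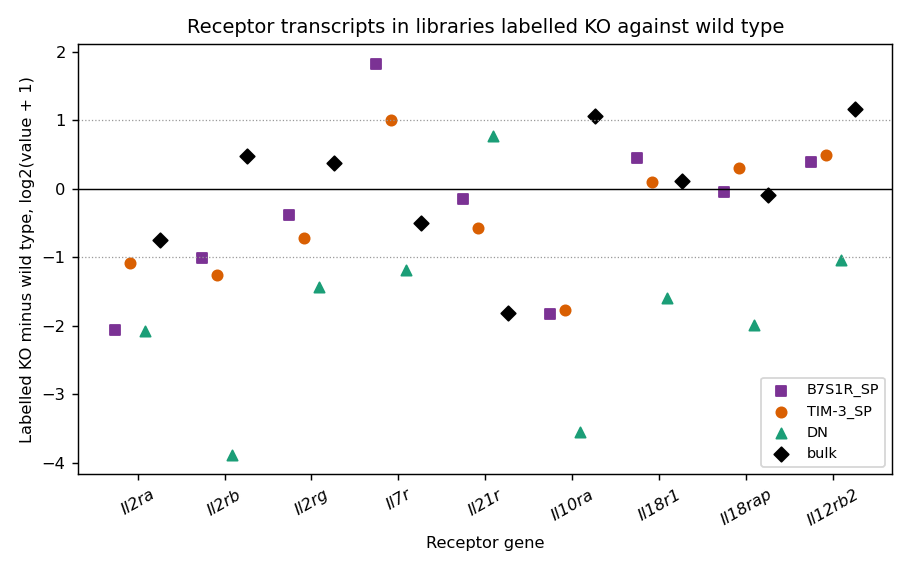
Difference of labelled KO minus wild type in log2(value + 1) for 9 receptor genes, in B7S1R_SP (squares), TIM-3_SP (circles), DN (triangles) and the bulk pair (diamonds). The dotted lines mark a difference of 1. Il2ra, Il2rb and Il10ra lie below -1 in all 3 sorted populations, and the bulk values of Il2rb, Il2rg and Il10ra lie above 0.

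The antibody libraries have 1 library each, so their ratios have no replicate check. A 2-fold ratio was common there and sets no chain apart. It was passed by 4 of 9 chains between combo and Control, beside 68.0% of all genes tested, and by 3 of 9 between anti_PD1 and Control, beside 67.6%. Between anti_B7S1 and Control 4 of 8 passed, beside 66.9%. Between combo and anti_B7S1 5 of 9 passed, beside 64.1%, and between combo and anti_PD1 4 of 9, beside 56.3%. Between anti_PD1 and anti_B7S1 4 of 9 passed, beside 59.3%. Scaling matters here, since shifting the libraries to a common median moved the median of all genes' ratios to Control by -0.92 (anti_B7S1) to -1.08 (anti_PD1) on the log2 scale. Between anti_B7S1 and Control it ended the 2-fold ratio of Il2rb (0.98), Il7r (0.35) and Il18r1 (0.36) and gave one to Il21r (-1.56), so 2 of 8 chains passed, both lower.

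Il2rb was lowest in Control. It read 1343, 1305 and 1024 FPKM in combo, anti_PD1 and anti_B7S1, against 275 FPKM in Control. The log2(FPKM + 1) ratios to Control were 2.28, 2.24 and 1.90, and these share the Control library. Il21r was highest in Control, with 197, 154 and 405 FPKM in combo, anti_PD1 and anti_B7S1, against 631 FPKM in Control.

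Il12rb2 parted the libraries that received anti_PD1 or combo from those that did not. It read 39.2 FPKM in combo and 61.4 FPKM in anti_PD1, and was listed at 0 in anti_B7S1 and in Control. Listed at 0 may be a failed estimate, since Tbp in combo and Gusb in Control, which every cell uses, were also listed at 0. No fold is therefore given, although the counts of 2-fold ratios include Il12rb2. Of 14710 symbols, 4828 were listed at 0 in combo, 2244 in anti_PD1, 4424 in anti_B7S1 and 6242 in Control. Il12rb1, the partner of Il12rb2, was listed at 0 in combo, anti_B7S1 and Control and at 0.41 FPKM in anti_PD1. Il12rb2 was thus seen in 2 of these 4 libraries.

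Each antibody can be read in 2 pairs that share no library. For anti_PD1 the pairs are anti_PD1 with Control and combo with anti_B7S1, taking combo as both antibodies, which the labels do not state. Il12rb2 was higher in both pairs and Il21r lower in both, making 2 of 9 chains with a 2-fold ratio in the same direction, against 15.7% of 9120 genes. The Il12rb2 call rests on a listed 0 in the reference library of each pair. Il21r read 154 FPKM in anti_PD1 and 631 FPKM in Control, and 197 FPKM in combo and 405 FPKM in anti_B7S1. For anti_B7S1 the pairs are anti_B7S1 with Control and combo with anti_PD1. There Il7r was higher in both pairs and Il2ra lower in both, making 2 of 9 chains, against 11.0% of those genes. These calls depend on the setting. Il7r lost its call with a common median (0.35 between anti_B7S1 and Control) and with a common T cell gene mean (0.98 between combo and anti_PD1). Il2ra lost its call with a pseudocount of 5 (-0.83 between combo and anti_PD1).

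Il7r read 114 FPKM in anti_B7S1 and 46.7 FPKM in Control, and 63.6 FPKM in combo and 23.4 FPKM in anti_PD1. Its highest value was thus in anti_B7S1 and its lowest in anti_PD1. Il2ra read 1.19 FPKM in anti_B7S1 and 7.6 FPKM in Control, and 6.43 FPKM in combo and 15.4 FPKM in anti_PD1. Il7r and Il2ra therefore had opposite orders in these 4 libraries. Il2rg was the steadiest chain, at 509, 566 and 698 FPKM in combo, anti_PD1 and anti_B7S1, against 527 FPKM in Control. Il18rap was nearly as even, between 42.5 and 61.2 FPKM. Il18r1 was not, with 15.8, 54.9 and 104 FPKM in combo, anti_PD1 and anti_B7S1, against 42.6 FPKM in Control. Il10ra read 18.5, 54.1 and 63.9 FPKM in combo, anti_PD1 and anti_B7S1, against 33.0 FPKM in Control.

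**Figure D5:**
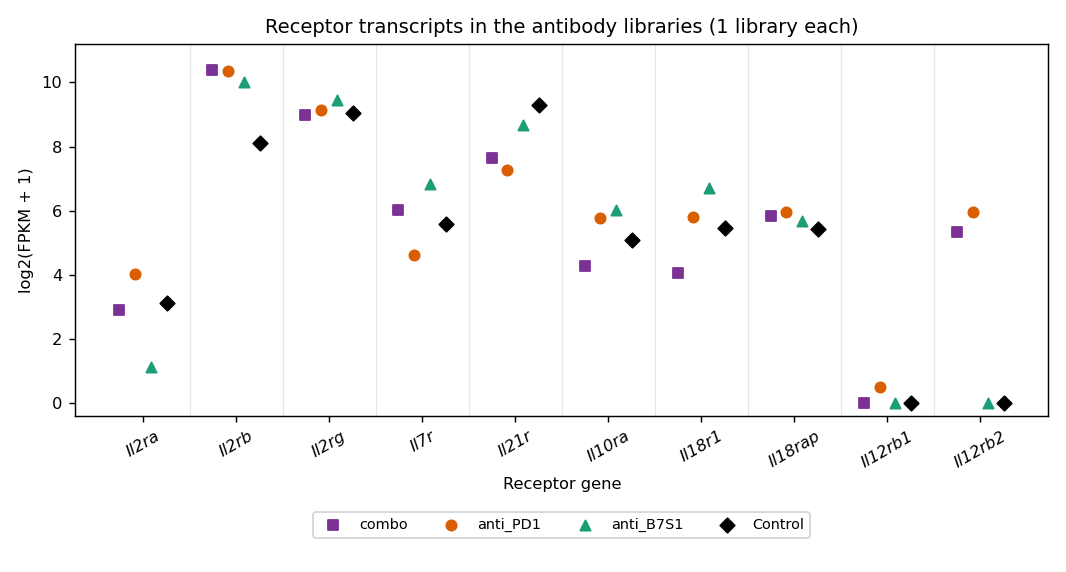
Level of each receptor gene as log2(FPKM + 1) in combo, anti_PD1, anti_B7S1 and Control, 1 library each. Il2rb is lowest and Il21r highest in Control, and Il12rb2 stands well above 0 in combo and anti_PD1 and at 0 in the other libraries.

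The genes around these receptors, taken from lists that were chosen with earlier results known, held calls among effector genes and Il7r regulators. Between B7S1R_SP and TIM-3_SP, where 1.62% of all genes passed, 2 of 14 IL-2 and STAT5 target genes tested passed, both lower. These were Gzmb, a granzyme of killer cells (-8.42 ± 0.45), and Prf1, the pore-forming perforin (-5.10 ± 0.83), with limma adjusted p-values of 5.87e-06 and 0.0139. Of 6 IL-12 and STAT4 targets, 1 passed, Ifng, which encodes interferon gamma (-5.00 ± 0.41, limma adjusted p = 0.000148). Between TIM-3_SP and DN, where 0.236% of all genes passed, Gzmb (4.68 ± 0.45) and Ifng (2.46 ± 0.41) were higher, with limma adjusted p-values of 0.00152 and 0.0366. Among 8 regulators of Il7r, 1 passed in each of those comparisons. It was Tcf7, a transcription factor of memory-like cells, at 3.24 ± 0.38 in B7S1R_SP against TIM-3_SP and -3.17 ± 0.38 in TIM-3_SP against DN, with limma adjusted p-values of 0.00205 and 0.00596. It read 106, 150 and 94.1 FPKM in B7S1R_SP labelled KO, wild type 1 and wild type 2, against 15.7, 12.1 and 7.36 FPKM in TIM-3_SP. With B7S1R_SP reduced to the wild type 1 library, whose spread limma takes from the other populations, Gzmb (-8.06, limma adjusted p = 0.000253) and Ifng (-4.07, limma adjusted p = 0.0184) passed between B7S1R_SP and TIM-3_SP. Prf1 (-3.48, limma adjusted p = 0.185) and Tcf7 (3.27, limma adjusted p = 0.131) did not. Foxo1, the other known regulator of Il7r named here, read 1.41 to 9.67 FPKM in TIM-3_SP, against 4.56 to 8.62 FPKM in DN.

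The signalling genes held no call in limma. Of 11 JAK kinases and STAT factors, 11 cytokine feedback inhibitors and 12 IL-18 receptor signalling genes tested, 0 passed in any of the 3 population comparisons or between genotypes. At an unadjusted p under 0.05 the 3 lists held 1, 3 and 2 genes between B7S1R_SP and TIM-3_SP, beside 1594 of all 10178 genes. Between genotypes they held 2, 4 and 3 genes at that level, beside 1536 of all 10097 genes. Jak3, the kinase bound by the gamma chain, read 0.42 to 81.5 FPKM and Jak1 9.49 to 75.1 FPKM over the sorted libraries. Stat4, which IL-12 activates, read 10.2 to 138 FPKM and Myd88, the IL-18 adaptor, 13.2 to 52.5 FPKM there. Of 16 other cytokine receptors, 1 passed between B7S1R_SP and TIM-3_SP, Ifnar2, a type I interferon receptor chain (1.75 ± 0.37, limma adjusted p = 0.0407), and without the 2 libraries that stood apart it was 1.80 with a limma adjusted p of 0.322. It was lower in TIM-3_SP against DN (-2.29 ± 0.37, limma adjusted p = 0.033). Il1r2, a decoy receptor for IL-1, was the 1 of 13 other receptors past the threshold between genotypes. It read 3.68, 10.1 and 6.71 FPKM in B7S1R_SP, TIM-3_SP and DN labelled KO, against 79.6, 59.98 and 84.7 FPKM in wild type 2, with a log2 fold change of -3.35 ± 0.39 (limma adjusted p = 0.0208). Among the myeloid markers 8 of 16 tested passed between B7S1R_SP and TIM-3_SP. All 16 had a fitted value above 0, higher in B7S1R_SP. Of 13 T cell genes 12 had a fitted value below 0, and Cd3g (-1.60 ± 0.27) and Cd8a (-2.05 ± 0.46) passed. Over all 10178 genes 80 passed as higher and 85 as lower. Without the 2 libraries that stood apart Cd3g was at -1.41 and Cd8a at -0.78.

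Across the 9 sorted libraries, centred within each set, some chains followed each other closely. Pearson's r was 0.962 between Il18r1 and Il18rap, 0.978 between Il2rg and Il18r1 and 0.968 between Il2rb and Il18rap. Il7r followed none of them, with r between -0.361 and 0.441 to the other chains. The 9 points share libraries, sets and the low levels of 2 B7S1R_SP libraries, so these values are descriptions and carry no test. Among 6170 genes averaging 5 FPKM or more, those most like Il2rb were Tmem171 (r = 0.997) and Ggact (0.991), and those most like Il7r were Hnrnpdl (0.995) and Gramd3 (0.988). For Il2rg they were Cd53 (0.988) and Dkkl1 (0.987), for Il18r1 Tes (0.988) and Cnn2 (0.983), and for Il18rap Ndfip1 (0.99) and Selplg (0.986). For Il10ra they were Abhd6 (0.983) and Kctd10 (0.979), for Il2ra Lrrfip1 (0.969) and Dffa (0.957), and for Il12rb2 Enpp2 (0.982) and Arfgap1 (0.972). The closest genes to Il21r, Mettl1 (0.927) and Nsun3 (0.908), and to Il12rb1, Trmo (0.899) and Alg13 (0.898), were less close.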

How the data were processed

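Tumour CD8 T cells gave 15 RNA-seq libraries, made with a SMARTer kit for low input, per the labels' protocols. Deposited bulk values are RPKM, per the file headers, and never below 0.001. All other deposited values are FPKM, per the file headers, and can be 0. HISAT2, Bowtie2, RSEM and mm10 are named in the submitters' processing notes, and versions, filters and annotation are not given in the sources used here. No raw counts were used.

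Groups were taken from the library titles, since strain and genotype entries increase by 1 from sample to sample in part of the series. The files list 17205, 15627, 17605 or 14710 unique symbols in 4 tables, so levels were compared within sets of files. Sorted libraries were tested with limma 3.58.1 in R 4.3.3 on log2(FPKM + 1), with a variance trend, over genes listed in all libraries of the fit with a mean of at least 1 FPKM, adjusted by Benjamini-Hochberg with a threshold of 0.05. The population fit used 9 libraries with the library set as a term. This set term holds the replicate number, taken from the titles. Deviations of same-numbered wild-type libraries correlated at 0.401, 0.269 and 0.193 (10411 genes). Each exceeds 0.1, which was the limit set for treating the numbers as pairs. These correlations cannot tell pairs from a difference between gene tables, since the libraries numbered 1 share a table and those numbered 2 share another. The genotype fit used the 6 libraries of 1 gene table with the population as a term. Fits were tested on simulated data with known changes. Unreplicated libraries were compared as log2 ratios with a pseudocount of 1, and counted from a 2-fold ratio with 5 or more in the higher library. Bulk depth came from the step size of low RPKM values, where 87.3% of 3252 genes had ratios of whole numbers up to 12, within 0.02%.

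Named genes were the 10 receptors, the 2 genes most like each, a fixed panel of signalling genes and any list gene past the threshold. The receptors, lists and tests were chosen with earlier results of these data known. Promoter windows came from the RefSeq table for GRCm38.p6. Alternatives covered pseudocounts, filters, scaling, the block, the variance trend and left-out libraries.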

Additional observations from a re-analysis of the deposited data

Results flagged for a closer look

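Il2rb, Il2rg and Il10ra read higher in the KO-labelled bulk library than in its wild-type partner, by 0.48, 0.38 and 1.06 on the log2(RPKM + 1) scale, while each was lower in the library labelled KO in all 3 sorted populations. The sorted values were -1.02, -1.26 and -3.88 for Il2rb in B7S1R_SP, TIM-3_SP and DN, -0.38, -0.72 and -1.44 for Il2rg, and -1.83, -1.77 and -3.54 for Il10ra. With a common T cell gene mean the bulk values were 0.24, 0.14 and 0.82. The difference between the designs was not tested, and the bulk pair differs from the sorted libraries in gate, unit and gene table.

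Il18r1 was 1.27 higher on the log2(FPKM + 1) scale in anti_B7S1 than in Control, but its difference was -1.74 between combo and anti_PD1. This difference was not tested, since each of the 4 libraries stands alone. With the libraries shifted to a common median the values were 0.36 and -1.67, in the same order.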

How the results depend on the processing

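Between TIM-3_SP and DN, limma called 24 genes, and 15 with a pseudocount of 0.1 or after quantile normalization, 12 with a common median, 7 in 1 gene table, 6 without the variance trend, 5 without a filter, 1 without the replicate block and 0 in wild type without it. Leaving out 1 library gave 4 (without either wild-type DN library) to 33. Between B7S1R_SP and DN it called 1 gene (Gzmb), and 16 with a common T cell gene mean, 13 in 1 gene table, 8 in wild type with the replicate block, and 0 with either other pseudocount, without a filter, without the variance trend, with absent genes as 0, or without the block in 9 or in the wild-type libraries. Leaving out 1 library gave 0 to 10 (without B7S1R_SP wild type 1). Between B7S1R_SP and TIM-3_SP it called 165 genes. This became 2035 with a common T cell gene mean, 427 in 1 gene table, 93 with a pseudocount of 0.1, 65 in wild type with the replicate block, 42 without the variance trend, 22 without a filter, 13 without the 2 B7S1R_SP libraries that stood apart, 11 without the block and 6 in wild type without it. Leaving out 1 library gave 39 (without TIM-3_SP wild type 2) to 251 (without TIM-3_SP wild type 1). Between genotypes it called 10 genes, and 163 without the B7S1R_SP libraries, 31 with a common T cell gene mean, 17 with a common median, 4 without the variance trend, 1 without the population term and 0 without a filter or over all 9 libraries. Leaving out 1 library gave 0 (without B7S1R_SP wild type 2) to 210 (without TIM-3_SP wild type 2), and 176 without TIM-3_SP labelled KO. In the bulk pair 1389 genes passed 2-fold, 705 with a pseudocount of 5 and 2450 with no minimum. The common T cell gene mean and the joint removals of B7S1R_SP libraries were added after seeing the data. The causes were not tested.

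Of 39 fitted receptor values, 24 changed sign in at least 1 alternative, all of them values with no call, while the 1 called value, Il2rb between B7S1R_SP and TIM-3_SP, did not. Without the 2 B7S1R_SP libraries that stood apart, Il2rb (0.22) and Il18rap (0.18) turned above 0 between B7S1R_SP and DN. Of 66 unreplicated ratios, 15 changed sign, 10 of them with a common median, and 0 of the 27 past 2-fold did. The Il2rb call between B7S1R_SP and TIM-3_SP held in 5 of 22 alternatives and was lost in the others, among them wild type with the replicate block (adjusted p = 0.0754, limma) and no block (adjusted p = 0.635, limma). Other fitted receptor values gained a call 17 times. Ratios lost a 2-fold call 10 times and gained one 12 times. The Il2rb adjusted p ranged from 0.00413 to 0.999. Depth is unknown for the FPKM files, so values near 0, as of Il12rb1, set no limit.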
